A study of Homo sapiens with 18 samples.

Results

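The genes described here are the aryl hydrocarbon receptor AHR, its partner ARNT and 3 genes that the pair induces, CYP1A1, CYP1B1 and TIPARP. They are 5 of the 17026 human genes in the deposited table. They were chosen by name, with earlier results of these data known. CYP1A1 and CYP1B1 were picked because they fell steeply in BxPC-3, so that their values in this line, and every comparison of another line with it, are given for these genes as a description with no test. All 5 passed the filter on low values, a level of at least 1 in at least 3 of the 18 libraries, which left 15354 genes. CYP1A1 reached that level in 15 libraries and the others in all 18.

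Human cells of the pancreatic adenocarcinoma lines BxPC-3, MiaPaCa-2 and PANC-1 had been exposed to 100 nM THZ1 for 6 h, or to its solvent DMSO alone. The compound THZ1 binds CDK7 covalently, and CDK12 and CDK13 as well, kinases that act on the tail of RNA polymerase II. There were 3 libraries in each of 6 groups, which the series describes as biological replicates. Per the labels, the medium was the same for all groups, F12 with fetal bovine serum, β-glycerophosphate and ascorbic acid, and no agonist of AHR is named in it. The cell number behind each library is not given, so that neither cell number nor RNA per cell can be read from the levels.

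AHR is a transcription factor of the bHLH-PAS family that waits in the cytoplasm, bound to a chaperone complex, until a ligand such as a dioxin, a polycyclic hydrocarbon or a tryptophan metabolite reaches it. It then enters the nucleus, pairs with ARNT, and binds DNA at a short element with the core GCGTG. CYP1A1 and CYP1B1 encode cytochrome P450 enzymes that oxidise polycyclic hydrocarbons, and CYP1A1 is the classic readout of AHR activity. TIPARP encodes a mono-ADP-ribosyltransferase that modifies AHR and represses it, in a negative feedback loop.

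The 250 bases before the start of the gene are shown for CYP1A1 and TIPARP, in windows picked because the core element was found in them. They were taken from RefSeq (assembly GRCh38.p14, matched by symbol; 4 of the 5 genes matched, CYP1B1 not), and capitals mark GCGTG or its reverse complement CACGC. The CYP1A1 sequence is chr15:74725529-74725778 on the minus strand, and the TIPARP sequence is chr3:156674340-156674589 on the plus strand, before the first of 3 annotated starts.
CYP1A1: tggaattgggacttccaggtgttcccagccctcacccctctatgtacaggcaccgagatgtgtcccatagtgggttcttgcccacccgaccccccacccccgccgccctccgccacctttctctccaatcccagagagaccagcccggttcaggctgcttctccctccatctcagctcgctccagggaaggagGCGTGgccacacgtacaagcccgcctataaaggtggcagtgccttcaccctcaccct
TIPARP: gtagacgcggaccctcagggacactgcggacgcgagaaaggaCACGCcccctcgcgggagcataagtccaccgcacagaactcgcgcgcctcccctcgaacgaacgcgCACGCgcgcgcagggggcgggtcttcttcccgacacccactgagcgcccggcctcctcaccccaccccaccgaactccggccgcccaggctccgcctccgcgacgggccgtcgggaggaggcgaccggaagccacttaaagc

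The CYP1A1 stretch holds 1 match, whose first base lies 57 bases before the start, and a TATAAA box 32 bases before it. The TIPARP stretch holds 2 matches, 208 and 142 bases before the start, both read as CACGC on the strand shown, and no TATAAA. The windows before the other 2 TIPARP starts, the AHR window and the ARNT window hold no GCGTG on either strand. GGGCGG, the GC box bound by SP1, has 4 matches in the AHR window, 1 in that of CYP1A1, and 2, 1 and 0 in the TIPARP windows in the order of the starts. Of 35116 such windows over all genes, 32.2% hold GCGTG, 10.7% TATAAA and 42.6% GGGCGG, each counted on both strands. A match is a description of the letters, and a link between the element and the response to THZ1 was not tested.

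Levels are the deposited values times a constant that brings the mean library to a sum of 1e+06, called units here, and log2 differences are of the level plus 1. The deposited values are reads over a divisor for each library, and library sums were not made equal. In BxPC-3, THZ1 replicate 1 held 17002050 reads with a divisor of 227, and DMSO replicate 1 held 16940307 with 373. In MiaPaCa-2, THZ1 replicate 1 held 14558143 with 193, and DMSO replicate 3 held 14275582 with 300. At like depth, a given number of reads thus stood for a higher level with THZ1. Recovered reads per library ran over 6352482 to 20910423. PANC-1 DMSO replicate 1 was the shallowest library and stood apart. Over genes, its log2 levels scattered around their group mean with an SD of 0.519, and those of the others with 0.103 to 0.309, so that the results it changes most are given with and without it. Choice of scale shifts all genes together, but low levels by less, because of the 1 added before the log2. The median log2 difference, THZ1 minus DMSO, over the genes tested was 0.25 in BxPC-3, 0.19 in MiaPaCa-2 and -0.071 in PANC-1 on the deposited scale. It was -0.64, -0.85 and -0.31 for the same lines when libraries were scaled to their ERCC spike-ins, RNAs added to the extracted total RNA. When libraries were scaled to equal sums it was -0.29, -0.30 and -0.064. In all, limma called 59% of genes in BxPC-3, 56.3% in MiaPaCa-2 and 0.501% in PANC-1, and 73.2%, 71.4% and 6.81% without the outlying library. Higher genes were 67.9%, 64.8% and 54.5% of the calls in those lines on the deposited scale, and 2.23%, 1.97% and 0.214% on the ERCC scale. Of 6 epithelial markers 5 are in the table. KRT8, KRT18 and KRT19 were read in every line, while KRT7 averaged 4.2 units with DMSO in PANC-1 and 0.915 in MiaPaCa-2, against 1980 in BxPC-3. The gene SMAD4, known to be deleted in BxPC-3, had 375 to 1535 reads in MiaPaCa-2 and 80 to 477 in PANC-1, against 1 to 4 in BxPC-3. CDH1, the epithelial cadherin, averaged 3.31 units with DMSO in PANC-1 and 0.179 in MiaPaCa-2, against 298 in BxPC-3. VIM, a mesenchymal filament, averaged 1370 units in PANC-1 and 1410 in MiaPaCa-2, against 12.3 in BxPC-3.

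Among the tested responses of the 5 genes, limma called 1 of 3 in BxPC-3 (TIPARP), 2 of 5 in MiaPaCa-2 (CYP1B1 and TIPARP) and 0 of 5 in PANC-1, beside the shares of 59%, 56.3% and 0.501% over all genes. All 3 calls were falls, a direction in which 18.9% of genes were called in BxPC-3 and 19.8% in MiaPaCa-2. Neither the receptor nor its partner was called in any line in the main fit on the deposited scale. Without PANC-1 DMSO replicate 1 limma called 2 of 3 in BxPC-3 and 3 of 5 in MiaPaCa-2. AHR was then called as higher in both lines, where 73.2% and 71.4% of all genes were called. In PANC-1, 1 of 5 (AHR) had an unadjusted p under 0.05, edgeR and DESeq2 on the recovered reads each called 0 of 5, and limma called 1 of 5 (TIPARP) without DMSO replicate 1.

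AHR, the receptor, measured 135, 121 and 135 units in the BxPC-3 THZ1 libraries, against 105, 98.5 and 89.7 in the DMSO libraries. Every THZ1 library lay above every DMSO library, as was the case for 51.1% of all genes in this line. The log2 difference was 0.41 (SE 0.276), with an adjusted p from limma of 0.214, and of 0.00547 without PANC-1 DMSO replicate 1, a library of another line that adds to the shared estimate of spread. On the ERCC scale it was -0.77 (adjusted p = 0.0679), so that the direction turned with the scale.

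In MiaPaCa-2, AHR was at 12.4, 19.3 and 15.6 units with THZ1, against 11.7, 12.1 and 13.1 with DMSO, and the groups overlapped. The log2 difference was 0.31 (SE 0.276, limma adjusted p = 0.358), and its adjusted p was 0.0305 without PANC-1 DMSO replicate 1. On the ERCC scale it was -0.89 (limma adjusted p = 0.0294).

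In PANC-1, AHR was at 54.9, 78.3 and 73.3 units with THZ1, against 22.9, 56.8 and 69.6 with DMSO, where the low value is that of the outlying library. The log2 difference was 0.59 (SE 0.276, limma adjusted p = 0.225). It was 0.11 (adjusted p = 0.706) without DMSO replicate 1, and 0.89 (adjusted p = 0.0324) without DMSO replicate 3, so that single control libraries decided its size.

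Between lines with DMSO, AHR was highest in BxPC-3, lower in PANC-1 and lowest in MiaPaCa-2. It averaged 12.3 ± 0.735 units in MiaPaCa-2 and 97.7 ± 7.64 in BxPC-3 (SD, n = 3 each), a log2 difference of -2.89 (limma adjusted p = 9.44e-08). PANC-1 averaged 49.7 ± 24.1 units, with a log2 difference from BxPC-3 of -1.10 (limma adjusted p = 0.00256) and from MiaPaCa-2 of 1.79 (limma adjusted p = 2.88e-05). Without the outlying library the difference of PANC-1 from BxPC-3 was -0.63 (limma adjusted p = 0.000389). Such differences were common, with 62.6%, 59.1% and 60.8% of genes called for MiaPaCa-2 minus BxPC-3, PANC-1 minus BxPC-3 and PANC-1 minus MiaPaCa-2.

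ARNT, the partner that AHR shares with the hypoxia factors, was nearly level on the deposited scale. Its libraries read 21.1, 21.1 and 20.6 units with THZ1 in BxPC-3, against 20.4, 18.2 and 20.8 with DMSO. In MiaPaCa-2 they read 61.7, 68.1 and 62.0 units with THZ1, against 61.3, 56.6 and 59.3 with DMSO, and in PANC-1 38.3, 42.6 and 38.3 with THZ1, against 35.0, 38.7 and 42.8 with DMSO. The MiaPaCa-2 groups did not overlap, as for 47.6% of genes in the higher direction, and the others did.

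The log2 differences of ARNT were 0.079, 0.11 and 0.034 in BxPC-3, MiaPaCa-2 and PANC-1, each with SE 0.0873, and limma gave adjusted p of 0.457, 0.295 and 0.814. The 95% intervals were -0.11 to 0.26, -0.074 to 0.30 and -0.15 to 0.22. Scaled to ERCC, ARNT was lower with THZ1, at -1.05 in BxPC-3 and -1.16 in MiaPaCa-2 (limma adjusted p = 0.000134 and 3.33e-05), and it was also negative there on the other 3 scales tried. With equal sums it was called in both lines, at -0.62 and -0.53 (limma adjusted p = 0.000577 and 0.00213), and with TMM or DESeq2 factors in neither.

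The order of the lines was another one than for AHR. With DMSO, ARNT averaged 38.9 ± 3.89 units in PANC-1, 59.1 ± 2.38 in MiaPaCa-2 and 19.8 ± 1.38 in BxPC-3 (SD, n = 3 each). MiaPaCa-2 minus BxPC-3 was 1.53, PANC-1 minus BxPC-3 was 0.94 and PANC-1 minus MiaPaCa-2 was -0.60 on the log2 scale, with limma adjusted p of 1.15e-10, 8.06e-08 and 1.67e-05.

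**Figure D1:**
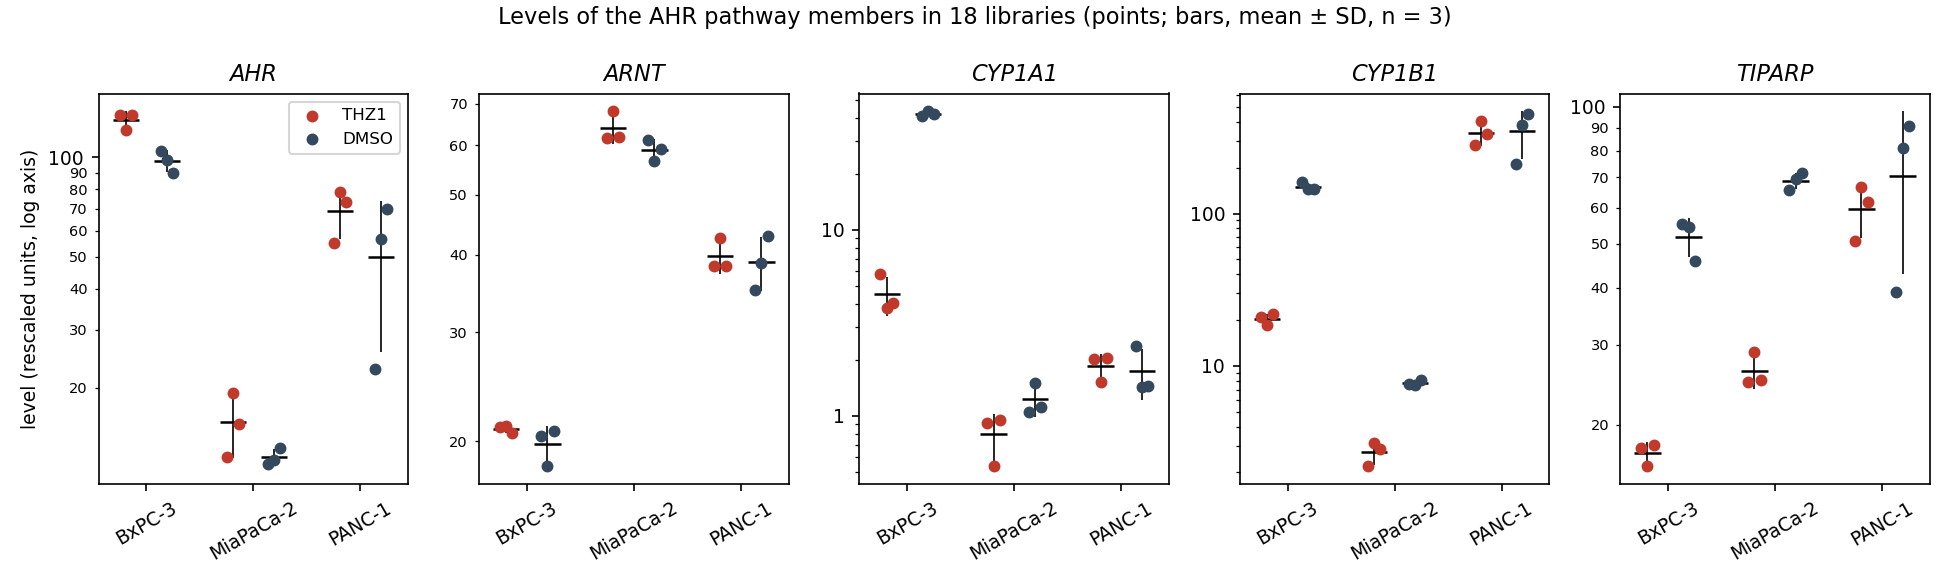
Level of each gene in each of the 18 libraries, in rescaled units on log axes that differ between panels, with THZ1 (red) left of DMSO (blue) in each line; horizontal marks are means and vertical lines SD (n = 3). CYP1A1 and CYP1B1 are far apart in BxPC-3, the comparison they were chosen for, TIPARP is lower with THZ1 in BxPC-3 and MiaPaCa-2, and the lowest PANC-1 DMSO points of AHR, CYP1B1 and TIPARP belong to replicate 1.

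CYP1A1, the classic readout of AHR, measured 5.76, 3.78 and 4.04 units with THZ1 in BxPC-3, against 40.9, 43.4 and 42.2 with DMSO. These are 46 to 74 reads with THZ1 and 711 to 863 with DMSO. The ratio of means was 0.107, or 9.31-fold lower, and the log2 difference of -2.98 was the 5th lowest of the 15354 genes. It was -3.96 on the ERCC scale and -3.25 to -3.62 on the 3 others. These values chose the gene and are not tested.

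In the other lines CYP1A1 rested on few reads. MiaPaCa-2 libraries held 10, 6 and 9 reads with THZ1, against 26, 28 and 19 with DMSO, or 0.916, 0.536 and 0.947 units against 1.05, 1.51 and 1.12. The groups did not overlap, as for 26.2% of genes in the lower direction. The log2 difference was -0.31 (SE 0.166, limma adjusted p = 0.124), a value shrunk by the pseudocount at this level. It was called on all 4 other scales, and edgeR and DESeq2 on the recovered reads gave -0.83 and -0.82 and called it too. PANC-1 libraries held 35, 23 and 32 reads with THZ1, against 15, 28 and 25 with DMSO, that is 2.02, 1.52 and 2.04 units against 2.37, 1.43 and 1.44, which overlapped. There the log2 difference was 0.069 (SE 0.166, limma adjusted p = 0.802).

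With DMSO, CYP1A1 averaged 1.75 ± 0.537 units in PANC-1, 1.23 ± 0.247 in MiaPaCa-2 and 42.1 ± 1.22 in BxPC-3 (SD, n = 3 each). It was thus 34.3-fold and 24.1-fold lower in MiaPaCa-2 and PANC-1 than in BxPC-3, which is a description. PANC-1 minus MiaPaCa-2 was 0.29 on the log2 scale (limma adjusted p = 0.14), with overlapping libraries. AHR and CYP1A1 had their highest mean DMSO level in BxPC-3, and CYP1B1 in PANC-1. CYP1A1 was chosen by its fall from that BxPC-3 level. The match is thus a description, and a link between the genes was not tested.

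CYP1B1, the other P450 among the members, measured 20.9, 18.7 and 21.8 units with THZ1 in BxPC-3, against 159.8, 145 and 144 with DMSO. The ratio of means was 0.137, or 7.32-fold lower, with a log2 difference of -2.81 that was the 10th lowest of the genes tested. This too was a criterion of choice and is not tested.

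In MiaPaCa-2, which took no part in the choice, CYP1B1 was at 2.20, 3.13 and 2.84 units with THZ1, against 7.57, 7.55 and 8.13 with DMSO. The THZ1 values rest on 24 to 35 reads and the DMSO values on 138 to 187, and the groups were well apart. The gene fell by 1.24 on the log2 scale (SE 0.201, limma adjusted p = 6.63e-05). On the ERCC scale the difference was -2.27, and limma called it under every alternative tried, with an adjusted p of at most 0.00404 over all of them.

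In PANC-1, CYP1B1 was at 280.3, 404 and 333 units with THZ1, against 213, 382 and 448 with DMSO. The groups overlapped, and the log2 difference was 0.016 (SE 0.201, 95% interval -0.41 to 0.44, limma adjusted p = 0.964). Without DMSO replicate 1 it was -0.30 (limma adjusted p = 0.135).

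The response of CYP1B1 was 1.26 log2 units higher in PANC-1 than in MiaPaCa-2 (SE 0.284, limma adjusted p = 0.00271), and 0.94 higher (adjusted p = 4.12e-05) without DMSO replicate 1. Over all genes 38.9% of response differences between these lines were called, and 11.6% of all genes tested were called in this direction. Few genes of the whole table were called in PANC-1, and the part of this in the difference was not tested.

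With DMSO, CYP1B1 averaged 348 ± 121 units in PANC-1 and 7.75 ± 0.333 in MiaPaCa-2 (SD, n = 3 each). PANC-1 was 44.9-fold above MiaPaCa-2, a log2 difference of 5.25 (SE 0.201, limma adjusted p = 9.72e-13) that ranked 15326th of 15354 from the lowest. PANC-1 was 2.32-fold above and MiaPaCa-2 19.3-fold below BxPC-3, which averaged 149.6 ± 8.89 units, given as a description. PANC-1 thus carried the highest CYP1B1 level of the lines while its CYP1A1 rested on 15 to 28 reads a library.

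An antisense gene listed as CYP1B1_AS1, named after its values were seen, had 5, 11 and 6 reads with THZ1 in BxPC-3, against 77, 36 and 76 with DMSO. In MiaPaCa-2 it had 1 read in each THZ1 library and 6, 7 and 5 with DMSO, and in PANC-1 36, 40 and 24 with THZ1 against 17, 59 and 38 with DMSO. The libraries were stranded per the labels, but the counting setting is not given in the sources used here, so that reads of CYP1B1 and of its antisense gene cannot be told apart.

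TIPARP, the ADP-ribosyltransferase that restrains AHR, measured 17.8, 16.2 and 18 units with THZ1 in BxPC-3, against 55.3, 54.3 and 45.9 with DMSO. In MiaPaCa-2 it measured 24.8, 28.9 and 25.1 units with THZ1, against 65.7, 69.2 and 71.4 with DMSO. In both lines the groups were apart, as for 25% and 26.2% of genes in the lower direction.

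TIPARP fell by 1.52 on the log2 scale in BxPC-3 (SE 0.213, limma adjusted p = 1.28e-05) and by 1.36 in MiaPaCa-2 (SE 0.213, limma adjusted p = 4.88e-05), so that its mean was 2.99-fold and 2.62-fold lower. These differences ranked 394th and 385th from the lowest among the genes tested. They were -2.65 and -2.62 on the ERCC scale (limma adjusted p = 2.06e-07 and 1.99e-07). Limma called both under every alternative tried.

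In PANC-1, TIPARP was at 50.6, 66.6 and 61.7 units with THZ1, against 39.2, 81.4 and 90.6 with DMSO. The THZ1 libraries lay between the low DMSO library, replicate 1, and the other 2. The log2 difference was -0.16 (SE 0.213, limma adjusted p = 0.648). Without DMSO replicate 1 it was -0.53 (adjusted p = 0.00463) and called, and without DMSO replicate 3 it was 0.067, so that its direction rests on the control libraries.

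The response of TIPARP was 1.37 log2 units higher in PANC-1 than in BxPC-3 (SE 0.301, limma adjusted p = 0.00188) and 1.2 higher than in MiaPaCa-2 (SE 0.301, limma adjusted p = 0.00534). Without DMSO replicate 1 these differences were 1.00 (adjusted p = 2.2e-06) and 0.83 (adjusted p = 2.85e-05). Over all genes 42.7% of differences between PANC-1 and BxPC-3 were called, and 11.9% of all genes tested were called as higher in PANC-1. MiaPaCa-2 and BxPC-3 differed in the TIPARP response by 0.17 (95% interval -0.47 to 0.80, limma adjusted p = 0.802), a pair for which 13.8% of genes were called.

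The responses of AHR and ARNT were not called as different between any pair of lines on the deposited scale. For AHR the intervals were wide, -0.93 to 0.73 for MiaPaCa-2 minus BxPC-3, -0.65 to 1.00 for PANC-1 minus BxPC-3 and -0.55 to 1.10 for PANC-1 minus MiaPaCa-2. For ARNT they were -0.23 to 0.29, -0.31 to 0.22 and -0.34 to 0.18 for the same pairs. The ARNT response was called on the ERCC scale as higher in PANC-1, by 0.80 against BxPC-3 and by 0.92 against MiaPaCa-2 (limma adjusted p = 0.036 and 0.0129). With equal sums it was called too, by 0.66 and 0.57 (limma adjusted p = 0.00858 and 0.0209), but with TMM or DESeq2 factors it was not. CYP1A1 differed by 0.38 for PANC-1 minus MiaPaCa-2 (limma adjusted p = 0.215), and by 0.53 (adjusted p = 0.0387) without DMSO replicate 1. It was also called on all 4 other scales, at 0.56 to 0.85, and at 1.09 by both edgeR and DESeq2 on recovered reads (adjusted p = 0.0299 and 0.0433).

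With DMSO, TIPARP averaged 70.4 ± 27.4 units in PANC-1, 68.8 ± 2.86 in MiaPaCa-2 and 51.8 ± 5.17 in BxPC-3 (SD, n = 3 each). None of the 3 pairs was called by limma, with adjusted p of 0.11 for MiaPaCa-2 minus BxPC-3, 0.169 for PANC-1 minus BxPC-3 and 0.843 for PANC-1 minus MiaPaCa-2. Without PANC-1 DMSO replicate 1 all 3 were called, at log2 differences of 0.40, 0.72 and 0.32 (adjusted p = 0.000388, 1.44e-06 and 0.00854). In that fit 75.6%, 69.7% and 70.9% of all genes were called for the same pairs. Of the 3 target genes TIPARP was the one with the smallest spread of mean DMSO level over the lines.

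**Figure D2:**
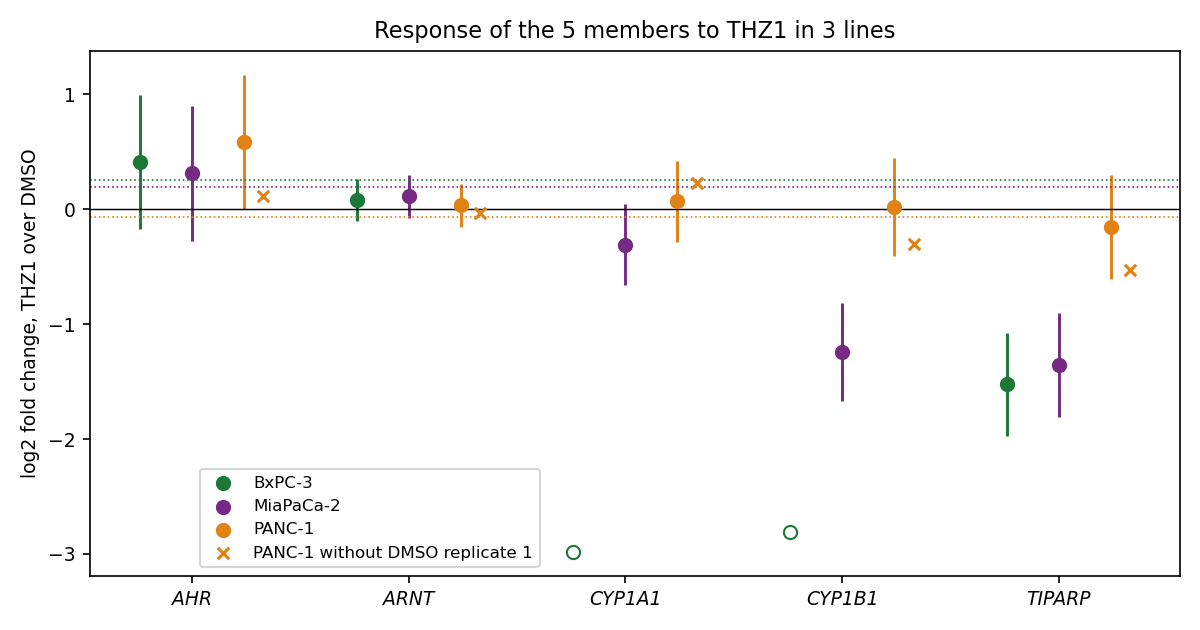
Log2 difference, THZ1 minus DMSO, of each gene in each line, with 95% intervals from limma (vertical lines); dotted lines mark the median of all genes tested in each line. Open circles are the BxPC-3 values of CYP1A1 and CYP1B1, which chose those genes and carry no interval; crosses show PANC-1 without DMSO replicate 1, where TIPARP moved to -0.53 and AHR to 0.11.

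**Figure D3:**
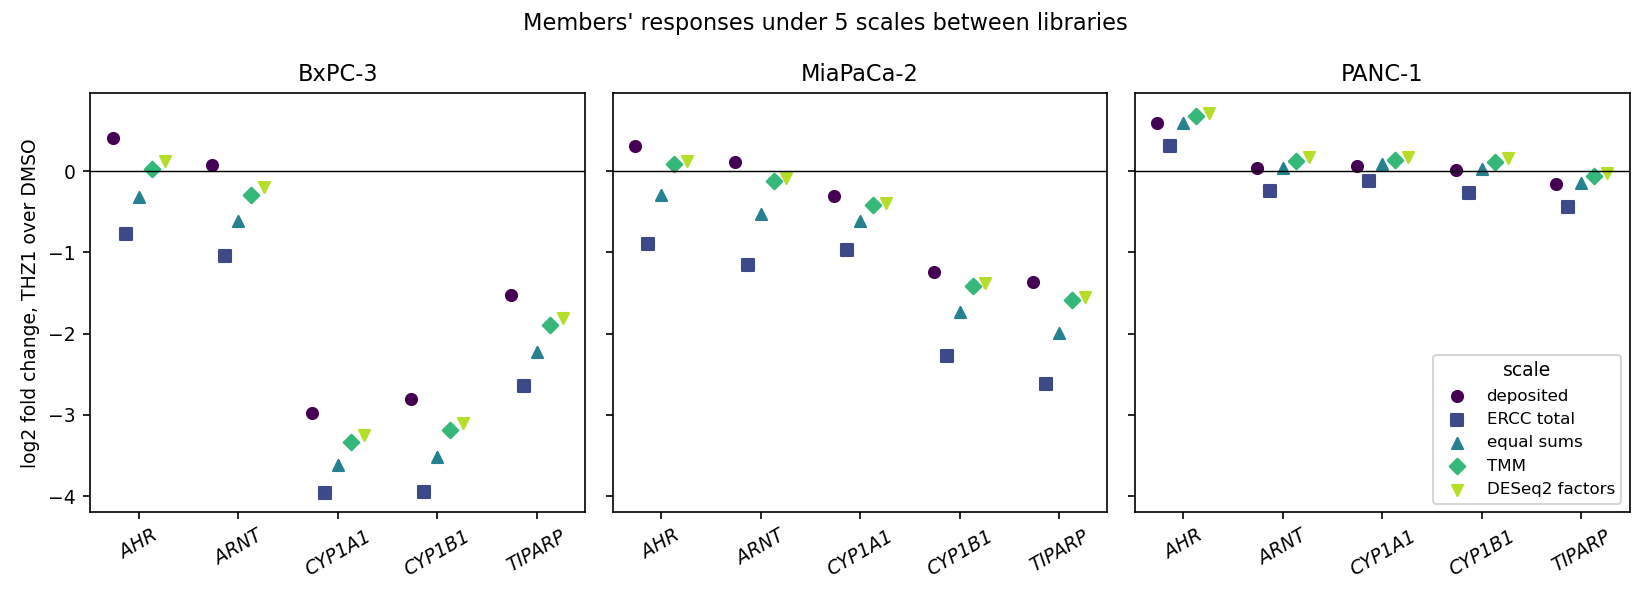
Log2 difference, THZ1 minus DMSO, of each gene under 5 ways of scaling the libraries, by line. The 3 target genes stayed below 0 in BxPC-3 and MiaPaCa-2 on every scale shown, while AHR and ARNT changed sign there, AHR with ERCC and equal sums and ARNT with each scale other than the deposited one.

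The differences can also be read against that of the median gene. In BxPC-3 the AHR difference was 0.16 above the median gene on the deposited scale, and ARNT was 0.17 below it. On the ERCC scale AHR was at -0.77 and ARNT at -1.05 there, both below the median of -0.64. In MiaPaCa-2 AHR was 0.12 above the median gene on the deposited scale. On the ERCC scale it was at -0.89 there, beside a median of -0.85. The side of the median gene on which AHR lay thus turned with the scale. On the deposited scale TIPARP was 1.78 below the median gene in BxPC-3 and 1.55 below it in MiaPaCa-2, and CYP1B1 was 1.43 below it in MiaPaCa-2. In PANC-1 AHR was 0.66 above the median gene, at the 99.2th percentile of all differences, and 0.11 was the whole difference without DMSO replicate 1.

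The wider pathway was read through 7 gene groups by role, 56 tested genes in all, chosen with earlier results known. In PANC-1 limma called 0 of the 56, where 13 had an unadjusted p under 0.05 and edgeR and DESeq2 called 0 and 5. Without PANC-1 DMSO replicate 1 limma called 4 of the 56 there, all higher. They were HSP90AA1, HSP90AB1, NQO1 and CYB5R3 (adjusted p = 0.0197, 0.0217, 0.00847 and 0.0481). In that fit 844 of the 15354 genes tested were called higher in PANC-1 and 201 lower. It called 7582 higher and 3654 lower in BxPC-3, and 7089 higher and 3869 lower in MiaPaCa-2. Group counts without that library are to be read beside these. With all libraries kept, 40% of all genes tested were called higher and 18.9% lower in BxPC-3. The shares were 36.5% higher and 19.8% lower in MiaPaCa-2, and 0.274% higher in PANC-1. The deposited-scale counts of each group are to be read beside these shares. On the ERCC scale 9067, 11223 and 2796 of the 15354 genes were called lower in BxPC-3, MiaPaCa-2 and PANC-1. There 207, 226 and 6 were called higher, and ERCC-scale group counts are to be read beside these. The chaperones that hold AHR in the cytoplasm were higher with THZ1 on the deposited scale in 4 of 4 genes in BxPC-3, 4 of 4 in MiaPaCa-2 and 0 of 4 in PANC-1, and 0 of 4 were higher on the ERCC scale in each line. HSP90AA1, an isoform of the chaperone HSP90, averaged 4543 ± 13.9 units with THZ1 in BxPC-3, against 2423 ± 106 with DMSO (SD, n = 3 each), a log2 difference of 0.91 (limma adjusted p = 1.32e-08) that was -0.28 on the ERCC scale. HSP90AB1, the other cytosolic isoform, had log2 differences of 1.05 in BxPC-3 and 1.00 in MiaPaCa-2 (limma adjusted p = 2.35e-09 and 7.31e-09), which were -0.14 and -0.29 on the ERCC scale. The group's median was 0.74 in BxPC-3 and 0.88 in MiaPaCa-2, beside medians of all genes of 0.25 and 0.19. With equal sums 1 was higher and 1 lower in BxPC-3, and 2 higher and 0 lower in MiaPaCa-2.

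Among 9 bHLH-PAS relatives that share ARNT or its fold, 3 were higher and 3 lower in BxPC-3, 1 and 1 in MiaPaCa-2 and 0 in PANC-1. Without PANC-1 DMSO replicate 1 the MiaPaCa-2 counts were 3 higher and 1 lower. Scaled to ERCC, 0 were higher and 7, 6 and 2 lower, and on the 3 further scales 0 were higher in any line too. HIF1A, the hypoxia factor that pairs with ARNT, averaged 567 ± 30.9 units with THZ1 in BxPC-3, against 319 ± 23.3 with DMSO, a log2 difference of 0.83 (limma adjusted p = 0.0231) that was -0.36 on the ERCC scale. ARNTL2, a circadian relative of ARNT, had a log2 difference of 0.83 in BxPC-3 (limma adjusted p = 0.0098) and -0.35 on the ERCC scale.

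AHRR, the repressor that competes with AHR for ARNT and is itself an AHR target, was named after its values were seen. It read 20.3, 26.6 and 23.7 units with THZ1 in BxPC-3, against 30.9, 31.8 and 33.1 with DMSO. In MiaPaCa-2 it read 5.95, 6.96 and 7.16 units with THZ1, against 13.5, 13 and 14 with DMSO. It fell by 0.43 and 0.92 on the log2 scale (limma adjusted p = 0.00162 and 1.31e-06), kept its sign on all 5 scales, and in PANC-1 had -0.28 (limma adjusted p = 0.151).

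Of 9 coregulators, 4 were higher and 2 lower in BxPC-3, and 2 higher and 3 lower in MiaPaCa-2, with 0 in PANC-1. Without PANC-1 DMSO replicate 1 they were 6 and 2 in BxPC-3, and 2 and 5 in MiaPaCa-2. Scaled to ERCC, 0 were higher and 7, 9 and 2 lower, where 9067, 11223 and 2796 of the 15354 genes tested were lower. With TMM factors 1 coregulator was higher in each of BxPC-3 and MiaPaCa-2. EP300, a histone acetyltransferase recruited by AHR, fell by 0.26 in BxPC-3 and by 0.75 in MiaPaCa-2 on the log2 scale (limma adjusted p = 0.00767 and 4.67e-07). MED1, a Mediator subunit, fell by 0.57 and 0.89 (limma adjusted p = 0.00425 and 0.000115). Both were lower on every scale.

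Of 17 other known AHR targets 9 were in the table and tested, and 4 were higher and 2 lower in BxPC-3, 2 and 1 in MiaPaCa-2 and 0 in PANC-1, while on the ERCC scale 0 were higher and 7, 4 and 1 lower. The shares of 4 and 2 in 9 lie near those over all genes in BxPC-3. NQO1, a quinone reductase induced by both AHR and NRF2, read 180, 182 and 177 units with THZ1 in BxPC-3, against 93.2, 92.5 and 96.2 with DMSO, a log2 difference of 0.93 (limma adjusted p = 4.38e-09) that was -0.26 on the ERCC scale. In MiaPaCa-2 its difference was 1.08 (limma adjusted p = 2.45e-09) and -0.21 on the ERCC scale. IL1B, an inflammatory cytokine, fell by 1.44 in BxPC-3 and by 0.99 in MiaPaCa-2 (limma adjusted p = 1.49e-05 and 0.000638), with the same sign on every scale.

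The electron donors and haem enzymes that P450 enzymes need were called higher in 5 of 7 genes in BxPC-3 and 5 of 7 in MiaPaCa-2, and in 0 of 7 in PANC-1, while 0 were higher when scaled to ERCC. With libraries at equal sums 1 was higher and 1 lower in BxPC-3. CYB5R3, cytochrome b5 reductase, averaged 215 ± 7.22 units with THZ1 in BxPC-3, against 101.5 ± 4.32 with DMSO, a log2 difference of 1.08 (limma adjusted p = 7.99e-07) that was -0.11 on the ERCC scale. CYB5A, cytochrome b5, had 0.70 in BxPC-3 and 1.07 in MiaPaCa-2 (limma adjusted p = 1.89e-05 and 2.47e-07), and -0.41 and -0.15 on the ERCC scale.

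Of 6 enzymes of tryptophan breakdown, a pathway with AHR ligands among its products, 3 were tested. Limma called 0 of them in each line, as did edgeR and DESeq2. An unadjusted p under 0.05 was found for 2 in BxPC-3, 0 in MiaPaCa-2 and 1 in PANC-1. IL4I1 and KYNU had log2 differences of 0.51 and 0.66 in BxPC-3 (limma adjusted p = 0.0722 and 0.0509), and both were called there without PANC-1 DMSO replicate 1 (adjusted p = 0.0168 and 0.000182). Of 21 other genes with CYP symbols 16 were tested, and 2 were higher and 2 lower in BxPC-3, 1 and 3 in MiaPaCa-2 and 0 in PANC-1, while 0 were higher on the ERCC scale and 9, 13 and 2 lower. Without PANC-1 DMSO replicate 1 they were 4 and 2 in BxPC-3, and 1 and 6 in MiaPaCa-2. CYP2R1, a vitamin D 25-hydroxylase, fell by 0.96 in BxPC-3 and by 1.46 in MiaPaCa-2 (limma adjusted p = 0.000212 and 3.71e-06). CYP19A1, the aromatase, had -0.23 and -0.66 (limma adjusted p = 0.594 and 0.115), and the MiaPaCa-2 value was called without PANC-1 DMSO replicate 1 (adjusted p = 0.00104).

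**Figure D4:**
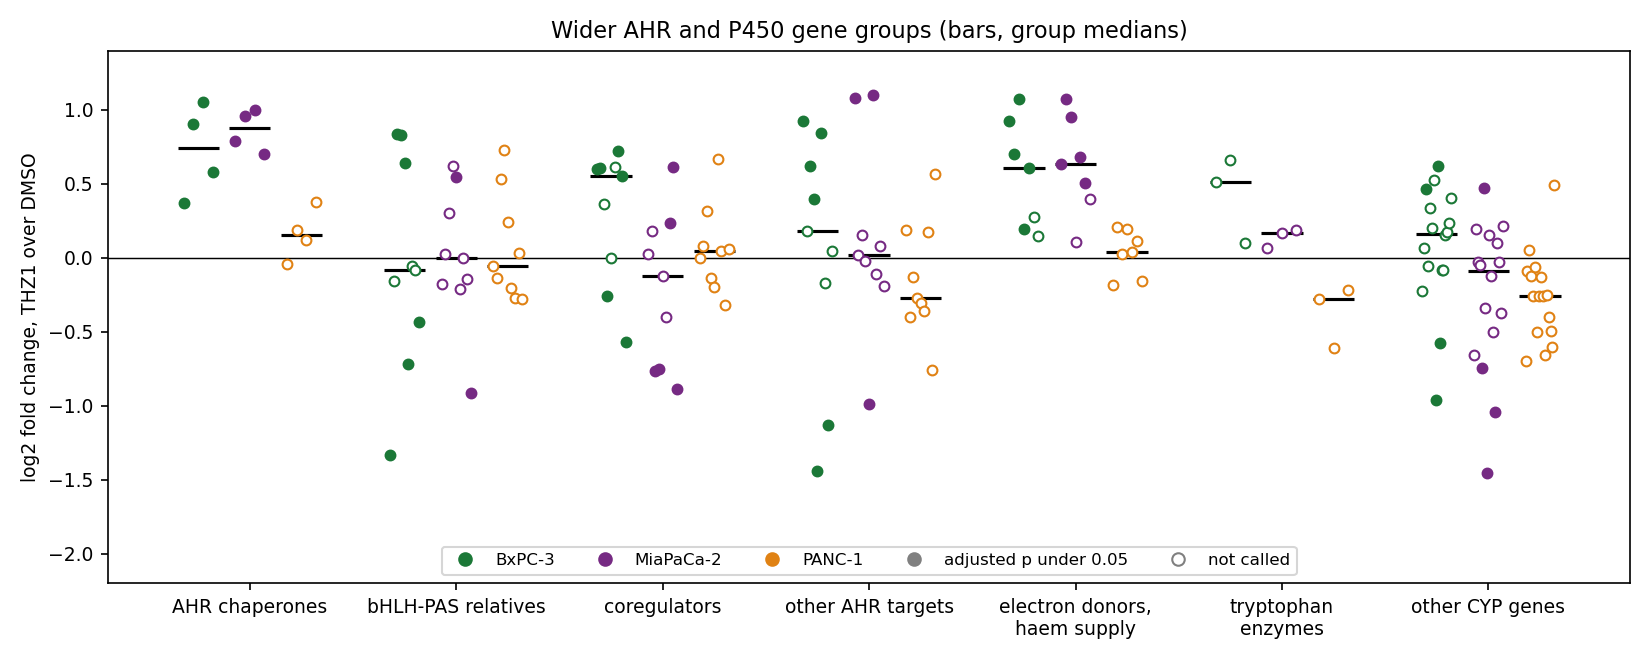
Log2 difference, THZ1 minus DMSO on the deposited scale, of each tested gene in 7 groups around AHR and the P450 enzymes, coloured by line; filled points were called by limma (adjusted p under 0.05), open points were not, and bars are group medians. All 4 chaperones are filled and above 0 in BxPC-3 and MiaPaCa-2, but on the ERCC scale their medians were -0.45 and -0.39; no point of PANC-1 is filled.

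The genes whose levels followed each member most closely over the 18 libraries were found by Pearson correlation of log2 levels among 10750 genes. All share the libraries and their differences between lines, and the correlations are a description. For AHR they included FAT1 (r = 0.992) and PLEKHA1 (r = 0.991). For ARNT they were FAM171A1, SCML2 and F2R, each at r = 0.993. CYP1A1 was closest to CARD6 (r = 0.978), RDH10 (r = 0.97) and RP11_350F4_2 (r = 0.958), of which CARD6 and RDH10 had log2 differences of -1.98 and -1.93 in BxPC-3. CYP1B1 was closest to FUT4 (r = 0.988), IRAK2 and GLCCI1 (both r = 0.985). TIPARP was closest to UTP14C (r = 0.979), GABPB1 (r = 0.977) and RBAK (r = 0.974). UTP14C, GABPB1 and RBAK had log2 differences of -1.73, -0.99 and -1.27 in BxPC-3 and -1.33, -0.77 and -1.75 in MiaPaCa-2.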

How the data were processed

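Polyadenylated RNA was measured by stranded sequencing in 18 libraries of 3 cell lines. Per the submitters' processing notes, reads were aligned with STAR to hg19. No source used here gives the read counter, the annotation or the divisor. What the authors deposited is a signal per gene and library: with a whole divisor for each library, 100% of values came within 0.001 of whole reads (largest deviation 0.000112). Whole counts recovered from the deposited values, at least 1 in each library for every gene listed, were used only for edgeR 4.0.16 and DESeq2 1.42.0. The deposited log2 ratios, pooled over lines, and their SD, a score computed by the authors, were not used. A unit other than counts called for limma 3.58.1 with a trend in R 4.3.3, run on log2 of the level plus 1, in 1 fit of 6 group means with residual df 12. Values were multiplied by 17.6795, so that a level of 1 stands for 6.34 to 24.7 reads. Benjamini-Hochberg adjustment ran over 15354 genes at 0.05. The 22 names turned into dates by a spreadsheet have no gene name. Hyphens in gene names stand as low lines. In the main fit a p-value sets a difference against a spread between these libraries that is estimated for each gene over all 6 groups. It is thus not the spread of the compared line alone, and PANC-1 DMSO replicate 1 adds to it.

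Members, lists and tests were chosen with earlier results of these data known. The rule named the 5 members, in each role group the 2 tested genes with the largest absolute mean log2 difference over the lines, and for each member the 3 most correlated genes with a mean of at least 5. One gene that the rule named is not reported here. Other genes are said to be named after their values were seen. ERCC RNAs took 0.203% to 0.425% of reads, and scaling to them assumes equal RNA input. Replicate libraries differed beyond sampling noise in every pair, with a chi-square per degree of freedom of 1.44 to 115. Alternatives were 4 other scales, 2 pseudocounts, 2 filters, a replicate block, each line alone, edgeR, DESeq2, and leaving out each library. Leaving PANC-1 DMSO replicate 1 out of every comparison was added after seeing the data.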

Additional observations from a re-analysis of the deposited data

Results flagged for a closer look

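The response of TIPARP to THZ1 differed between lines by a test of the difference itself. It was 1.37 log2 units higher in PANC-1 than in BxPC-3 (limma adjusted p = 0.00188), and ranged over 1.00 to 2.21 with an adjusted p of at most 0.0122 under the alternatives. It was 1.2 log2 units higher in PANC-1 than in MiaPaCa-2 (limma adjusted p = 0.00534), with a range of 0.83 to 2.18 and an adjusted p of at most 0.0244. The response of CYP1B1 was 1.26 log2 units higher in PANC-1 than in MiaPaCa-2 (limma adjusted p = 0.00271), with a range of 0.74 to 2 and an adjusted p of at most 0.0387. All 3 differences use PANC-1 DMSO replicate 1 and hold their call without it. PANC-1 as a whole had 0.501% of genes called against 59% in BxPC-3 and 56.3% in MiaPaCa-2, and the part of this general difference in these results was not tested.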

How the results depend on the processing

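Of 710 tested values of the members under alternatives, 633 kept their direction and their side of the threshold. All 38 values of CYP1A1 and CYP1B1 in BxPC-3, which have no test, kept their direction. CYP1B1 in MiaPaCa-2 and TIPARP in BxPC-3 and MiaPaCa-2 were called as falls under each alternative run. The cause of the changes below was not tested, apart from the scale itself, which shifts all genes of a library together, low levels by less.

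On the ERCC scale, the log2 difference of THZ1 over DMSO was -0.77 for AHR, -1.05 for ARNT, -3.96 for CYP1A1 and -3.95 for CYP1B1 in BxPC-3. In MiaPaCa-2 it was -0.89 for AHR, -1.16 for ARNT and -0.97 for CYP1A1, and in PANC-1 -0.24 for ARNT, -0.12 for CYP1A1 and -0.27 for CYP1B1. With equal sums, AHR had -0.32, ARNT -0.62, CYP1A1 -3.62 and CYP1B1 -3.52 in BxPC-3, and AHR -0.29, ARNT -0.53 and CYP1A1 -0.62 in MiaPaCa-2. With TMM factors, ARNT had -0.29, CYP1A1 -3.33 and CYP1B1 -3.19 in BxPC-3, and ARNT -0.13 and CYP1A1 -0.42 in MiaPaCa-2. With DESeq2 factors, these were -0.20, -3.25 and -3.10 in BxPC-3, and -0.082 and -0.39 in MiaPaCa-2. With edgeR on recovered reads they were -0.24, -3.53 and -3.19 in BxPC-3 and -0.10 and -0.83 in MiaPaCa-2, and with DESeq2 -0.20, -3.49 and -3.15 in BxPC-3 and -0.086 and -0.82 in MiaPaCa-2. A pseudocount of 5 gave -2.31 for CYP1A1 and -2.60 for CYP1B1 in BxPC-3.

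AHR was called as higher in the fits on the compared line alone, at 0.41 in BxPC-3 and 0.31 in MiaPaCa-2. Without PANC-1 DMSO replicate 1 it was called at the same values. Leaving out 1 library at a time, AHR ranged over 0.35 to 0.46 in BxPC-3, 0.16 to 0.46 in MiaPaCa-2 and 0.11 to 0.89 in PANC-1. In PANC-1 the range was -0.036 to 0.105 for ARNT, -0.011 to 0.22 for CYP1A1, -0.30 to 0.23 for CYP1B1 and -0.53 to 0.067 for TIPARP.

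In PANC-1 limma called 77 genes. Under other scales it called 2802 (ERCC), 168 (equal sums), 21 (TMM factors) and 16 (DESeq2 factors), and it called 51 and 145 with pseudocounts of 0.25 and 5, and 26 and 144 with no filter and a filter of 5. The line alone gave 0, with 442 genes at an unadjusted p under 0.05, edgeR 19 and DESeq2 691. Leaving out 1 library gave 5 to 3334 calls, 1045 without DMSO replicate 1, 855 without DMSO replicate 2 and 3334 without DMSO replicate 3. TIPARP in PANC-1 was called only without DMSO replicate 1 (-0.53).

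Replicate numbers were not used to pair the libraries in the main fit. Deviations of same-numbered libraries correlated at -0.032 to 0.455, and the highest values were 0.455 and 0.3 for PANC-1 replicates 1 and 2. With the replicate number as a block, limma called 12 genes in PANC-1, and no call of a member changed.

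Differences of the response between lines turned sign in 28 values of AHR, ARNT or, for DMSO levels, TIPARP, and 11 others became called. For AHR, MiaPaCa-2 minus BxPC-3 was 0.021 with equal sums, 0.060 with TMM, 0.0032 with DESeq2 factors, 0.045 with edgeR and 0.017 with DESeq2, and -0.25 to 0.053 when leaving out 1 library. For AHR in PANC-1 the ranges were -0.30 to 0.48 against BxPC-3 and -0.20 to 0.58 against MiaPaCa-2. For ARNT, MiaPaCa-2 minus BxPC-3 was -0.12 on the ERCC scale and -0.014 to 0.088 leaving out 1 library. PANC-1 minus BxPC-3 was 0.80, 0.66, 0.42, 0.37, 0.34 and 0.29 with ERCC, equal sums, TMM, DESeq2 factors, edgeR and DESeq2, with a range of -0.12 to 0.025 leaving out 1 library, and PANC-1 minus MiaPaCa-2 was 0.92, 0.57, 0.25, 0.25, 0.20 and 0.18. The TIPARP DMSO level, PANC-1 minus MiaPaCa-2, was 0.16 with edgeR, 0.13 with DESeq2 and -0.28 to 0.32 leaving out 1 library.

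Depth limits CYP1A1 outside BxPC-3, at 6 to 35 reads a library, where a change of a few reads moves the value. Some genes of the wider groups were low as well. In MiaPaCa-2, CYP19A1 averaged 0.376 units with THZ1 against 1.19 with DMSO, IL1B 0.892 against 2.76, and CYP2R1 1.99 against 7.11. IL4I1 averaged 1.72 units with THZ1 against 0.913 with DMSO in BxPC-3. The pseudocount shrinks the log2 differences at such levels.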
